A study of Mus musculus with 18 samples.

Results

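Gene expression was compared in mouse acute myeloid leukemia (AML) cells with and without doxycycline (Dox) induction of the 4 reprogramming factors, using 6 of the 18 arrays in the series. Members were taken by label: the 3 arrays titled as AML with Dox and the 3 titled as AML control. The Dox cells were GFP-positive leukemia cells carrying the MLL-AF9 fusion, sorted from leukemic mice with the 4F transgenes (Dox-inducible Oct4, Sox2, Klf4 and c-Myc), and exposed to Dox in vitro for 24 h. The control cells had the same fusion and the same 4F transgenes, without Dox, and the tissue label of both groups is bone marrow. No treatment time is given for the control arrays, and whether those cells were cultured for 24 h is not stated in the labels used here. Effects of time in culture therefore cannot be told apart from those of Dox. The promoter that drives the transgenes, the age of the mice, the number of mice, pooling and the Dox dose are not stated in the sources used here. No array of Dox-treated AML cells without the transgenes was analysed here, so effects of Dox itself and of the induced factors cannot be told apart. The arrays are named biological repeats, with no word on separate mice or cultures, so the p-values rest on the spread among these arrays, part of which may be technical. The cells were measured in bulk, and fewer cells of a type and less RNA per cell cannot be told apart.

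Klf4, Sox2, c-Myc and Oct4, which the gene Pou5f1 encodes, are transcription factors that together can return a differentiated cell to a pluripotent state. c-Myc with its partner Max binds E-box DNA and drives ribosome production, nucleotide synthesis and entry into S phase, while proteins of the Mxd family compete for Max and oppose it. MLL-AF9 is a fusion of a histone methyltransferase with a partner from the transcription elongation machinery, and it keeps Hoxa genes and Meis1 active in immature myeloid cells. AML cells of this type usually resemble granulocyte and monocyte progenitors, with primary granule proteins and rapid division.

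Values are log2 signals after robust multi-array averaging (RMA) on 1-colour Affymetrix whole-transcript arrays, and differences are Dox minus control. Of 22180 genes with a probe set of their own, 14763 lay above the 40th percentile of the array on at least 3 of the 6 arrays and were tested with limma. That percentile lies between 2.34 and 2.40 log2, so a value near 2.4 is close to the low end of the scale. A gene was called at a Benjamini-Hochberg adjusted p under 0.05. Values on the 3 Dox arrays correlated at 0.986 to 0.989 with each other across genes, those on the 3 control arrays likewise at 0.986 to 0.989, and Dox with control arrays at 0.928 to 0.930. The array medians were 2.75 for each Dox array and 2.66 to 2.67 for the control arrays. RMA scales all arrays to nearly the same distribution of values, so a change in total RNA per cell would not be seen.

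The scale of the difference was wide. At the adjusted p alone 3790 genes rose (25.7% of those tested) and 4257 fell (28.8%), or 8047 in all (54.5%). With a change of at least 2-fold asked for as well, 1442 rose (9.77%) and 1674 fell (11.3%), or 3116 in all (21.1%). The 3 Dox values lay wholly outside the 3 control values for 8889 genes (60.2%), with 28.2% of genes wholly higher and 32.0% wholly lower in Dox. All member counts below are to be read against these shares. The direction depended on the size of the change: 164 genes rose and 84 fell by at least 8-fold, and 22 rose and 3 fell by at least 32-fold. Genes that rose at least 2-fold had a median level of 6.57 in Dox and 4.55 in control cells, whereas genes that fell at least 2-fold had a median of 4.96 in Dox and 6.76 in control cells. A total of 51 genes lay at or under the 40th percentile on all 3 control arrays and above the 60th on all 3 Dox arrays, and 7 showed the opposite pattern. With the tested genes split by mean level into 3 groups of 4921, 120 genes rose and 38 fell at least 2-fold in the low group, 637 rose and 685 fell in the middle group, and 685 rose and 951 fell in the high group, as the plot of change against level shows.

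**Figure D1:**
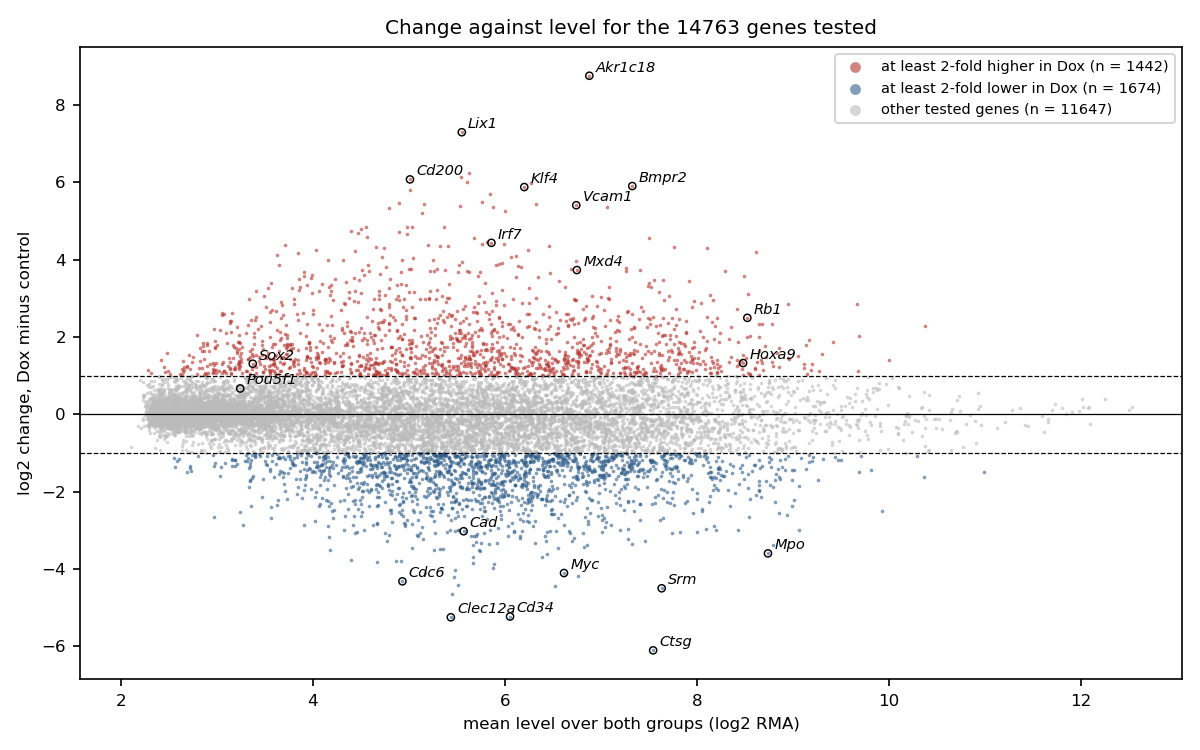
Log2 change (Dox minus control, vertical axis) against the mean log2 level of both groups (horizontal axis) for the 14763 genes tested, 1 point per gene, with red for the 1442 genes called at least 2-fold higher in Dox, blue for the 1674 called at least 2-fold lower and grey for the rest; dashed lines mark a 2-fold change. Rises reach 8.75 for Akr1c18 and falls reach -6.10 for Ctsg.

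The 4 induced factors did not move alike. Klf4 read 9.21, 9.16 and 9.06 on the Dox arrays, against 3.12, 3.29 and 3.39 on the control arrays. Every Dox array lay far above every control array, and the log2 change was 5.88 (SE 0.10, adjusted p = 7.82e-09), a 58.7-fold difference. Sox2, the partner of Oct4 at many pluripotency enhancers, read 3.93, 4.56 and 3.60 on the Dox arrays, against 2.89, 2.70 and 2.58 on the control arrays. The groups did not overlap, although the Dox arrays spread more widely than the control arrays, and the change was 1.31 (SE 0.22, adjusted p = 0.000982). Pou5f1 read 3.71, 3.30 and 3.73 on the Dox arrays, against 2.77, 2.97 and 2.99 on the control arrays, also without overlap and with a change of 0.67 (SE 0.13, adjusted p = 0.00246). The Dox levels of Sox2 and Pou5f1 remained low on the scale of the array.

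Myc went the opposite way to the labelled induction. It read 4.82, 4.72 and 4.16 on the Dox arrays, against 8.63, 8.67 and 8.70 on the control arrays, a change of -4.10 (SE 0.16, adjusted p = 2.03e-07). All 3 Dox arrays lay far below all 3 control arrays, a 17.2-fold difference. The annotation used here does not say which part of each transcript the probe sets read, so endogenous and transgene transcripts were not separated for any of the 4 factors. Among the 10 other tested members of the Myc network, 2 rose and 5 fell. Mxd4, a Max partner that opposes Myc, rose and was by far the most changed of them, with 8.70, 8.57 and 8.58 on the Dox arrays, against 4.89, 4.73 and 5.04 on the control arrays. No Dox value came near a control value, and the change was 3.73 (SE 0.10, adjusted p = 3.79e-08). Max itself, the shared partner, changed by 0.25 (adjusted p = 0.04), and Mycn, a Myc paralog, changed by -0.32 (adjusted p = 0.0226) at a level near the low end. Neither call was stable: without Dox replicate 2 the adjusted p was 0.0762 for Max and 0.0747 for Mycn, and without control replicate 2 it was 0.103 for Max and 0.0795 for Mycn. Max also missed the threshold without Dox replicate 3 (0.123) and without control replicate 3 (0.119).

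**Figure D2:**
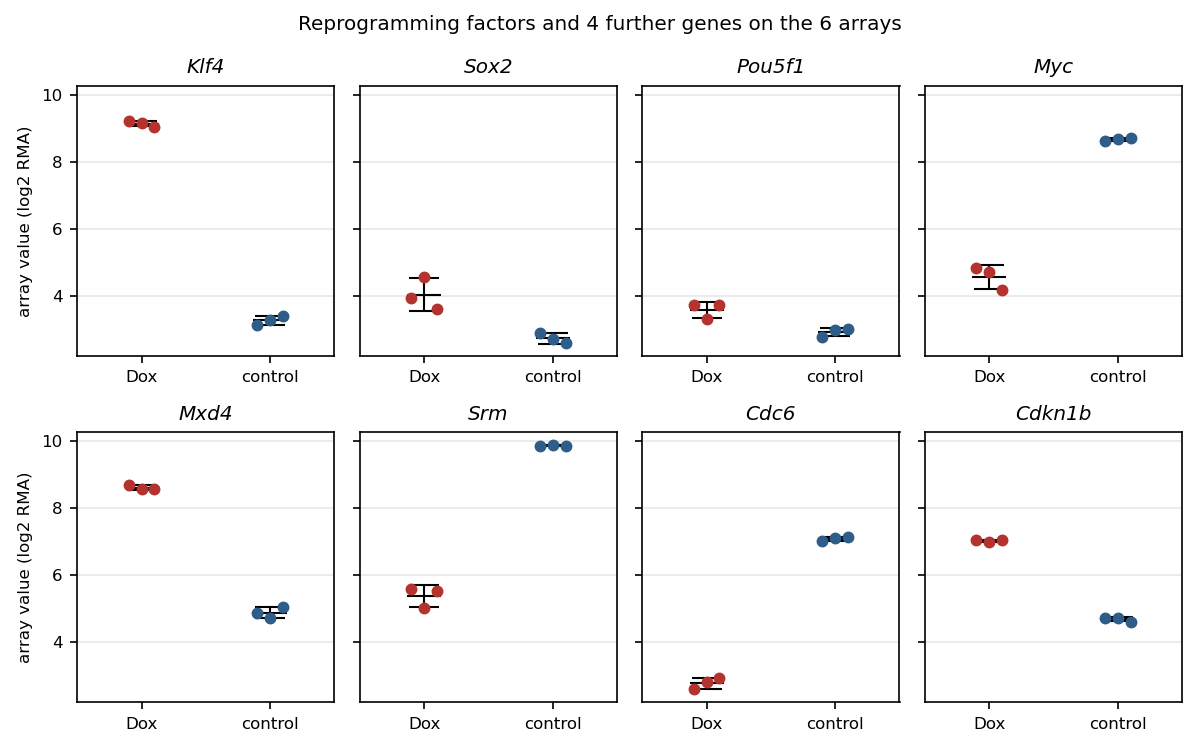
Log2 RMA value on each of the 3 Dox arrays (red, left) and 3 control arrays (blue, right) for the 4 reprogramming factors and for Mxd4, Srm, Cdc6 and Cdkn1b; the horizontal mark and bars are the mean and SD (n = 3). Klf4 and Mxd4 lie higher in Dox on every array, and Myc, Srm and Cdc6 lie lower on every array.

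Other Krüppel-like factors, which share the zinc-finger DNA-binding domain of Klf4, moved as well. Of 17 tested members of the Krüppel-like and Sp families other than Klf4, 11 rose and 2 fell, and 1 of the risers passed the level filter only through the Dox arrays. Klf3, a repressor of this family, read 7.87, 8.06 and 7.97 on the Dox arrays, against 3.37, 3.64 and 3.67 on the control arrays. Klf8 read 7.40, 7.09 and 7.25 on the Dox arrays, against 3.09, 3.53 and 3.17 on the control arrays. Both were wholly higher in Dox, with changes of 4.41 (SE 0.11, adjusted p = 2.78e-08) for Klf3 and 3.99 (SE 0.14, adjusted p = 1.01e-07) for Klf8. The next largest rises were smaller: Klf6 changed by 1.31, Klf10 by 1.24 and Sp4 by 1.19. Klf2, a quiescence-associated member, fell by 1.64-fold (log2 change -0.72, adjusted p = 0.00419).

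No tested gene of the wider pluripotency network was called higher. Of 23 measured genes of the pluripotency network 13 passed the level filter, of which 0 rose and 3 fell at limma's adjusted p, against 0 higher and 4 lower at an unadjusted p under 0.05. The median change of the measured members was -0.07, against -0.01 over all measured genes. Nanog, a core pluripotency factor, read 2.55, 2.43 and 2.60 on the Dox arrays, against 2.81, 2.45 and 2.63 on the control arrays. Its groups overlapped near the low end of the scale, with a change of -0.11 and an adjusted p of 0.459. Lin28a, the RNA-binding protein that blocks let-7 processing, read 3.35, 3.495 and 2.75 on the Dox arrays, against 2.75, 2.99 and 2.76 on the control arrays. It was not called, with a change of 0.36 (adjusted p = 0.136), but the adjusted p was 0.00371 without Dox replicate 3. Gdf3, a TGF-beta family ligand of pluripotent cells that was present in the control AML cells, read 3.35, 2.78 and 2.94 on the Dox arrays, against 5.57, 5.77 and 5.59 on the control arrays. It fell on every Dox array, with a change of -2.62 (SE 0.15, adjusted p = 1.22e-06). The epithelial genes that rise when fibroblasts are reprogrammed were largely at low levels: of 13 tested 3 rose and 0 fell by limma (4 and 1 at an unadjusted p under 0.05). Dsp, which encodes the desmosome protein desmoplakin, was the largest with a change of 2.05 (SE 0.12, adjusted p = 1.71e-06), while Cdh1, which encodes E-cadherin, changed by -0.01 (adjusted p = 0.967). The dimmer probe set of Cdh1 changed by 0.18.

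Genes of the growth programme that Myc is known to drive were lower in Dox. Every one of the 31 tested ribosome biogenesis genes fell, 28 of them by at least 2-fold, and the median change was -2.30. Gnl3, the nucleolar GTPase nucleostemin, read 5.16, 5.15 and 5.20 on the Dox arrays, against 8.49, 8.60 and 8.54 on the control arrays. Dkc1, the pseudouridine synthase of box H/ACA particles, read 5.03, 4.82 and 5.33 on the Dox arrays, against 8.38, 8.33 and 8.33 on the control arrays. Nolc1, a nucleolar scaffold for small nucleolar RNA particles, read 4.96, 5.36 and 5.09 on the Dox arrays, against 8.12, 8.24 and 8.28 on the control arrays. None of these had overlapping groups, and the changes were -3.37 (SE 0.08, adjusted p = 2.32e-08) for Gnl3, -3.28 (SE 0.13, adjusted p = 1.92e-07) for Dkc1 and -3.08 (SE 0.12, adjusted p = 1.62e-07) for Nolc1. The smallest fall of the list was that of Rrn3, the initiation factor of RNA polymerase I, with -0.69 (SE 0.09, adjusted p = 0.000262). Host genes whose introns carry small nucleolar RNAs moved the same way in a list added after the values were seen: 10 of 12 tested fell and 0 rose by limma (10 and 0 at an unadjusted p under 0.05). Snhg15 changed by -2.62 and Snhg1 by -2.16. The small nucleolar RNAs themselves, as annotated on the array, were divided, with 29 of 70 tested called higher and 20 called lower.

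Of 10 tested polyamine genes 3 fell and 2 rose. Srm, spermidine synthase, read 5.60, 5.02 and 5.54 on the Dox arrays, against 9.88, 9.90 and 9.88 on the control arrays. Odc1, ornithine decarboxylase, the rate-limiting enzyme of the pathway, read 5.01, 5.29 and 5.55 on the Dox arrays, against 8.29, 8.36 and 8.43 on the control arrays. Sat1, the acetyltransferase that starts polyamine breakdown, read 8.57, 8.496 and 8.67 on the Dox arrays, against 5.67, 5.69 and 5.36 on the control arrays. Both synthetic enzymes were wholly lower in Dox and the catabolic enzyme was wholly higher, with changes of -4.498 (SE 0.15, adjusted p = 8.98e-08) for Srm, -3.08 (SE 0.13, adjusted p = 3.21e-07) for Odc1 and 3.001 (SE 0.11, adjusted p = 1.46e-07) for Sat1. Of 10 tested genes of the pathway 5 were not called, among them Oaz1, the antizyme that targets ornithine decarboxylase for destruction, which changed by 0.20 (adjusted p = 0.109).

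Genes of nucleotide synthesis were lower along both the purine and pyrimidine routes. Of 20 tested enzymes 18 fell and 2 rose, with a median change of -1.53. Gart, a trifunctional enzyme of purine synthesis, read 4.66, 4.98 and 4.85 on the Dox arrays, against 8.33, 8.16 and 8.36 on the control arrays. Cad, the enzyme of the first steps of pyrimidine synthesis, read 3.96, 4.26 and 3.96 on the Dox arrays, against 7.15, 7.06 and 7.04 on the control arrays. Neither gene had overlapping groups, and the changes were -3.45 (SE 0.11, adjusted p = 6.84e-08) for Gart and -3.02 (SE 0.10, adjusted p = 1.05e-07) for Cad. The other probe sets of Gart changed by -0.84 and 0.04, so this value rests on the brightest of 3. The 2 exceptions were Impdh1, a dehydrogenase of guanine nucleotide synthesis, at 1.27 (SE 0.12, adjusted p = 2.59e-05), and Rrm2b, the p53-inducible subunit of ribonucleotide reductase, at 0.74 (SE 0.16, adjusted p = 0.00372). Rrm2, the S-phase subunit of the same enzyme, changed by -2.20, and its dimmer probe set by -0.67.

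Genes of amino acid supply were lower too. In the serine and one-carbon pathway 9 of 12 tested genes fell and 1 rose. Phgdh, the first enzyme of serine synthesis, read 3.499, 3.43 and 3.01 on the Dox arrays, against 6.86, 6.58 and 6.84 on the control arrays, with no overlap and a change of -3.45 (SE 0.15, adjusted p = 2.73e-07). Of 12 tested amino acid transporters 10 fell and 2 rose. Slc7a5, the large neutral amino acid carrier, changed by -2.54, and Slc3a2, its heavy chain, changed by -1.89. Slc7a7, a carrier of cationic amino acids in macrophages, was one of the rises at 0.86 (SE 0.16, adjusted p = 0.00189). Of 18 tested cytoplasmic tRNA synthetases 17 fell and 1 rose. The largest fall was that of Vars, for valine, at -2.94 (SE 0.13, adjusted p = 3.98e-07). The rise was that of Wars, for tryptophan, which is also an interferon-inducible gene. It read 9.98, 9.94 and 9.93 on the Dox arrays, against 7.67, 7.57 and 7.61 on the control arrays, wholly higher in Dox, with a change of 2.33 (SE 0.08, adjusted p = 8.77e-08).

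Protein folding, protein degradation and mitochondrial translation followed with smaller changes. Of 17 tested chaperone genes 14 fell and 1 rose. Hsph1, a cytosolic chaperone of the Hsp110 class, changed by -3.16, and Hspd1, the mitochondrial chaperonin, by -2.74. In the unfolded protein and ATF4 response 18 of 21 fell and 1 rose. Sdf2l1, an endoplasmic reticulum chaperone component, changed by -3.20, Xbp1, a transcription factor of this response, by -2.51, and Hspa5, the chaperone BiP, by -1.56. Ddit3, the stress-induced factor CHOP, was not called, with a change of 0.002 and an adjusted p of 0.992. Proteasome subunits shifted together by a small amount: 25 of 27 fell, 9 by at least 2-fold, with a median of -0.75. Of the mitochondrial ribosomal proteins 20 of 23 fell and 1 rose, with a median of -0.93. Respiratory chain subunits changed less, with 14 of 24 lower, 2 higher and a median of -0.39.

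DNA replication genes were lower almost without exception. Of 29 tested 27 fell, 25 of them by at least 2-fold, and 0 rose by limma (0 at an unadjusted p under 0.05), with a median change of -2.31. Cdc6, which loads the replicative helicase onto origins, read 2.59, 2.82 and 2.92 on the Dox arrays, against 7.03, 7.10 and 7.15 on the control arrays. Mcm2, a helicase subunit, read 4.55, 4.69 and 4.40 on the Dox arrays, against 8.15, 8.26 and 8.26 on the control arrays. Mcm5, another subunit of that helicase, read 5.59, 5.64 and 5.72 on the Dox arrays, against 8.99, 8.91 and 9.09 on the control arrays. The groups lay far apart for all 3 genes, with changes of -4.32 (SE 0.10, adjusted p = 2.37e-08) for Cdc6, -3.68 (SE 0.10, adjusted p = 3.45e-08) for Mcm2 and -3.35 (SE 0.09, adjusted p = 3.27e-08) for Mcm5. The 2 members that were not called were Pola1, the catalytic subunit of DNA polymerase alpha, at -0.15 (adjusted p = 0.119), and Gmnn, the licensing inhibitor geminin, at 0.20 (adjusted p = 0.253). Cdca7, a partner of the chromatin remodeler HELLS, read 3.36, 3.49 and 3.25 on the Dox arrays, against 7.60, 7.58 and 7.57 on the control arrays and was also wholly lower, with a change of -4.22 (SE 0.09, adjusted p = 1.69e-08). Clustered histone genes, whose messages are made in S phase, were examined in a list added after the values were seen. Of 16 tested 12 fell and 1 rose, out of 25 measured with a median change of -0.61, and 2 of the falling genes passed the level filter only through the control arrays.

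The promoters of the replication genes are shown because many hold the letters bound by E2F factors, which switch on S-phase genes when freed from Rb. Sequences are the 250 bases before the gene start from RefSeq (GRCm38.p6), 5′ to 3′ on the strand of the gene, with matches to TTCCCGC or TTGGCGC or TTCGCGC on either strand in capitals. The Cdc6 stretch is chr11:98907901-98908150 on the plus strand, and the Mcm5 stretch is chr8:75109259-75109508 on the plus strand.
Cdc6: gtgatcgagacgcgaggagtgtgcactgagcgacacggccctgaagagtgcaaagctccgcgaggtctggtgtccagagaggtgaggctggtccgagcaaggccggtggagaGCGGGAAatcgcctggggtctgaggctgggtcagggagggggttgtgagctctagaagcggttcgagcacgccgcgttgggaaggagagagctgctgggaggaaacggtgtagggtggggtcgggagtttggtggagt
Mcm5: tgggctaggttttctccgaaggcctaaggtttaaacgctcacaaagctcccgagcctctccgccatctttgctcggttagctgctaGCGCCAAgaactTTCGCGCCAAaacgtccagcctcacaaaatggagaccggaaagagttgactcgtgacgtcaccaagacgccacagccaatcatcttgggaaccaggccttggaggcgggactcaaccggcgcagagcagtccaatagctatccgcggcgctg
The Cdc6 stretch holds 1 match, starting 138 bases before the gene start. The Mcm5 stretch holds 3 matches that partly overlap, the first starting 164 bases before the gene start. Matches of this kind were present in 9 of 19 replication promoters (47.4%), against 1051 of 9367 promoters of the same length (11.2%), counted over the tested genes with a single promoter in the table. The share was 17.1% among genes that fell at least 2-fold and 8.14% among genes that rose at least 2-fold. These letters were searched after the values were seen, and a match is not evidence of binding.

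Mitotic genes fell as well, by smaller amounts. Of 28 tested 25 fell, 17 by at least 2-fold, and 1 rose, with a median change of -1.37. Aurkb, the kinase of the chromosomal passenger complex, read 5.77, 5.84 and 5.89 on the Dox arrays, against 8.12, 8.08 and 8.09 on the control arrays. Bub1, a checkpoint kinase at the kinetochore, read 5.29, 5.58 and 5.53 on the Dox arrays, against 7.76, 7.47 and 7.53 on the control arrays. Neither gene had overlapping groups, and the changes were -2.27 (SE 0.08, adjusted p = 1.04e-07) for Aurkb and -2.12 (SE 0.12, adjusted p = 1.02e-06) for Bub1. Mad2l1, a spindle checkpoint protein, was the member that rose, by a small 0.31 (SE 0.08, adjusted p = 0.00949). Mitotic promoters often carry the CCAAT box, the letters bound by the factor NF-Y. The Bub1 stretch is chr2:127831860-127832109 on the minus strand (GRCm38.p6, RefSeq, 250 bases before the gene start), with CCAAT on either strand in capitals.
Bub1: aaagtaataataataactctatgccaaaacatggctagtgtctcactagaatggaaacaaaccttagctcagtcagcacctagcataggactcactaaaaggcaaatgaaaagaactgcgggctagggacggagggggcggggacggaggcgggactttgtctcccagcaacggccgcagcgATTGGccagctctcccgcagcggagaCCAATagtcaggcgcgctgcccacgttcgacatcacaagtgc
It holds 2 matches, starting 68 and 42 bases before the gene start. A CCAAT box was present in 17 of 21 mitotic promoters (81%) and 14 of 19 replication promoters (73.7%), against 3395 of 9367 tested promoters (36.2%). It stood in 41.5% of genes that fell and 32.9% of genes that rose at least 2-fold.

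The E-box letters CACGTG stood in 2 of 25 ribosome biogenesis promoters (8%), 3 of 15 nucleotide synthesis promoters (20%) and 2 of 11 tRNA synthetase promoters (18.2%), against 765 of 9367 tested promoters (8.17%), 10.7% of genes that fell at least 2-fold and 8.95% of those that rose. The window ends at the gene start, and E-boxes within the first intron are outside it. The GC box GGGCGG, bound by Sp factors and some Krüppel-like factors, stood in 63.8% of promoters of genes that rose at least 2-fold, 60.5% of those that fell and 55.6% of all. The CACCC letters typical of Krüppel-like factor sites stood in 59% of those that rose, 53.3% of those that fell and 57% of all.

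**Figure D3:**
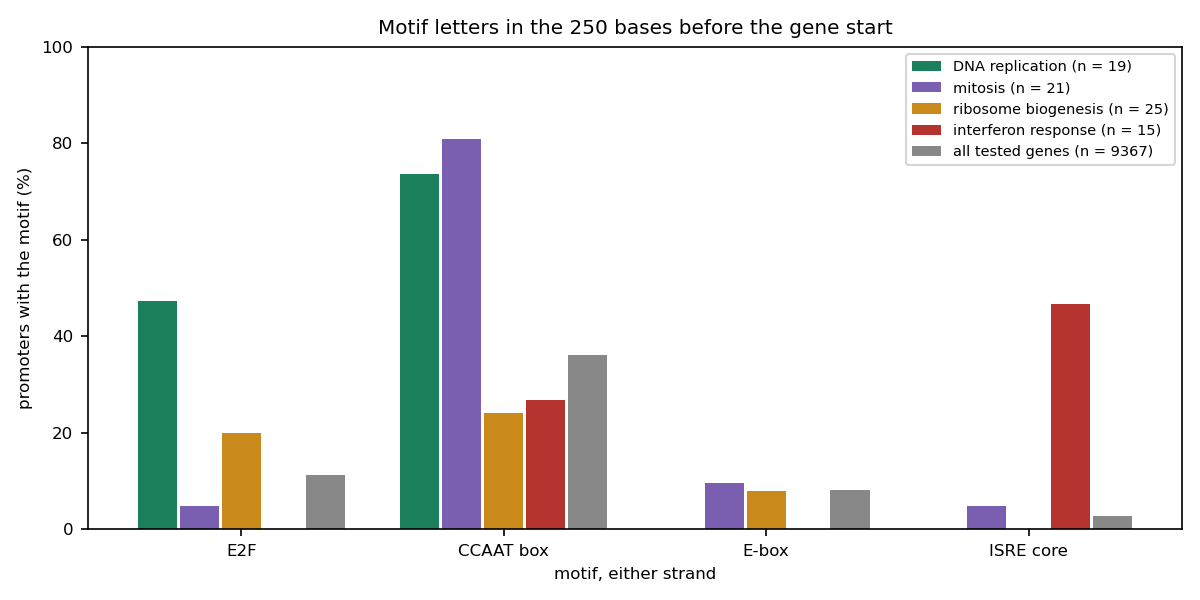
Share of promoters (vertical axis, percent, from 0) whose 250 bases before the gene start hold each motif on either strand, for 4 gene lists and for all 9367 tested genes with a single promoter in the table. The E2F letters stand in 47.4% of replication promoters against 11.2% of all, and the ISRE core in 46.7% of interferon-response promoters against 2.69% of all.

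Regulators of the G1 phase moved in both directions. Among 23 tested genes of the cyclin D, CDK, E2F and Rb group 15 fell and 4 rose. Ccnd2, the main D-type cyclin of many hematopoietic cells, read 4.94, 4.88 and 4.71 on the Dox arrays, against 7.93, 8.03 and 8.04 on the control arrays. E2f8, a repressive E2F made in S phase, read 4.93, 4.43 and 4.61 on the Dox arrays, against 7.96, 8.12 and 7.87 on the control arrays. Rb1, the retinoblastoma protein that holds E2F inactive, read 9.75, 9.81 and 9.77 on the Dox arrays, against 7.28, 7.32 and 7.25 on the control arrays. The cyclin and the E2F were wholly lower and Rb1 wholly higher, with changes of -3.16 (SE 0.09, adjusted p = 5.11e-08) for Ccnd2, -3.33 (SE 0.14, adjusted p = 2.41e-07) for E2f8 and 2.49 (SE 0.08, adjusted p = 5.99e-08) for Rb1, with 3.13 at the dimmer probe set of Rb1. Cdk6 was not called (-0.07, adjusted p = 0.538), whereas Cdk4 changed by -1.99.

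Inhibitors of cyclin-dependent kinases rose in 5 of 7 tested genes and fell in 1. Cdkn1b (p27) read 7.06, 7.001 and 7.04 on the Dox arrays, against 4.73, 4.72 and 4.61 on the control arrays. Cdkn2c (p18) read 4.54, 5.02 and 5.16 on the Dox arrays, against 2.81, 3.34 and 3.32 on the control arrays. These groups did not overlap, and the changes were 2.35 (SE 0.08, adjusted p = 9.46e-08) for Cdkn1b and 1.75 (SE 0.20, adjusted p = 7.74e-05) for Cdkn2c. Cdkn1a (p21), the inhibitor that p53 induces, went down: it read 4.82, 5.12 and 5.14 on the Dox arrays, against 6.61, 6.44 and 6.33 on the control arrays, wholly lower in Dox, with a change of -1.43 (SE 0.12, adjusted p = 1.22e-05). Genes tied to FOXO factors and quiescence rose in 11 of 16 cases and fell in 3. Tob1, an antiproliferative protein that recruits mRNA deadenylases, read 7.42, 7.59 and 7.57 on the Dox arrays, against 3.65, 3.496 and 3.59 on the control arrays, with a change of 3.95 (SE 0.09, adjusted p = 2e-08). Btg1, of the same family, changed by 2.28, and Foxo1 by 0.78, with 0.34 at the dimmer probe set of Foxo1.

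DNA repair genes were mostly lower, with 17 of 20 tested falling and 3 rising. Exo1, an exonuclease of mismatch repair and end resection, read 3.53, 3.72 and 3.26 on the Dox arrays, against 6.99, 7.09 and 6.99 on the control arrays. Brca1, of homologous recombination, read 4.37, 3.62 and 3.38 on the Dox arrays, against 6.14, 6.35 and 6.46 on the control arrays. Xrcc5, the Ku80 subunit of end joining, read 4.84, 4.96 and 4.87 on the Dox arrays, against 3.29, 2.75 and 3.05 on the control arrays. The first pair lay wholly lower and Xrcc5 wholly higher, with changes of -3.52 (SE 0.12, adjusted p = 1.07e-07) for Exo1, -2.53 (SE 0.23, adjusted p = 2.34e-05) for Brca1 and 1.86 (SE 0.14, adjusted p = 5.75e-06) for Xrcc5. Its partner Xrcc6 (Ku70) changed the other way, by -1.63.

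MicroRNA genes were examined because the cluster that holds miR-17 is a known Myc target. The array reads precursors or their host transcripts, not mature arms, and the members of these families were chosen after their values were seen. Mature sequences from RefSeq (GRCm38.p6) are printed 5′ to 3′ with the seed, bases 2 to 8, in capitals. The first 3 share the seed AAAGUGC. The miR-17-5p sequence lies at chr14:115043684-115043706 on the plus strand, miR-20a-5p at chr14:115044183-115044205 on the plus strand, miR-106b-5p at chr5:138165787-138165807 on the minus strand, miR-18a-5p at chr14:115043867-115043889 on the plus strand and miR-19a-3p at chr14:115044048-115044070 on the plus strand.
miR-17-5p: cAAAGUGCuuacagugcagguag
miR-20a-5p: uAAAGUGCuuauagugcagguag
miR-106b-5p: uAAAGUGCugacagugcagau
miR-18a-5p: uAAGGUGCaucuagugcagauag
miR-19a-3p: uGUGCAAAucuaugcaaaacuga
All 5 tested precursors of this group fell, out of 7 measured, but 2 of them passed the level filter only through the control arrays, and at the 60th percentile filter 2 were called lower. Mir18, the precursor of miR-18a, read 2.51, 2.78 and 3.15 on the Dox arrays, against 5.19, 4.90 and 4.82 on the control arrays. Mir17 read 2.72, 2.46 and 2.63 on the Dox arrays, against 3.58, 3.56 and 3.56 on the control arrays. Both were wholly lower in Dox, with changes of -2.16 (SE 0.17, adjusted p = 8.99e-06) for Mir18 and -0.96 (SE 0.09, adjusted p = 2.84e-05) for Mir17. Mir19a changed by -1.38 and Mir20a by -1.20, with all 3 Dox arrays under the 40th percentile, so these are measured values near the low end of the scale. With values raised to that percentile the changes were -1.02 for Mir19a and -0.79 for Mir20a. Mir106b, of a paralogous cluster inside Mcm7, changed by -0.65 (SE 0.18, adjusted p = 0.0143), and without Dox replicate 1 its adjusted p was 0.0521.

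Other microRNA precursors rose. The miR-181 family, known from lymphoid and myeloid differentiation, had 4 of 5 tested precursors higher, of which 1 passed the level filter only through the Dox arrays. The miR-181a-5p sequence lies at chr2:38852741-38852763 on the plus strand, the miR-181b-5p sequence at chr2:38853845-38853868 on the plus strand and let-7c-5p at chr15:85706616-85706637 on the plus strand. The miR-181 pair shares the seed ACAUUCA.
miR-181a-5p: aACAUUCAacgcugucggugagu
miR-181b-5p: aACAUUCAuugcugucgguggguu
let-7c-5p: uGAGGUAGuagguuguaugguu
Mir181a-2 read 5.03, 5.25 and 5.31 on the Dox arrays, against 2.89, 3.24 and 3.38 on the control arrays, wholly higher, with a change of 2.03 (SE 0.14, adjusted p = 4e-06). Mir181b-2 had all control arrays under the 40th percentile. Its rise was at least 1.97 on the log2 scale (adjusted p = 1.16e-06 as measured). Of the let-7 precursors 1 of 5 tested rose, 1 fell and 3 were not called. The riser was Mirlet7c-2, which read 5.15, 5.21 and 5.35 on the Dox arrays, against 2.99, 2.34 and 3.35 on the control arrays, a change of 2.34 (SE 0.22, adjusted p = 2.99e-05). Over all 180 microRNA genes tested, 18 rose and 7 fell by at least 2-fold.

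**Figure D4:**
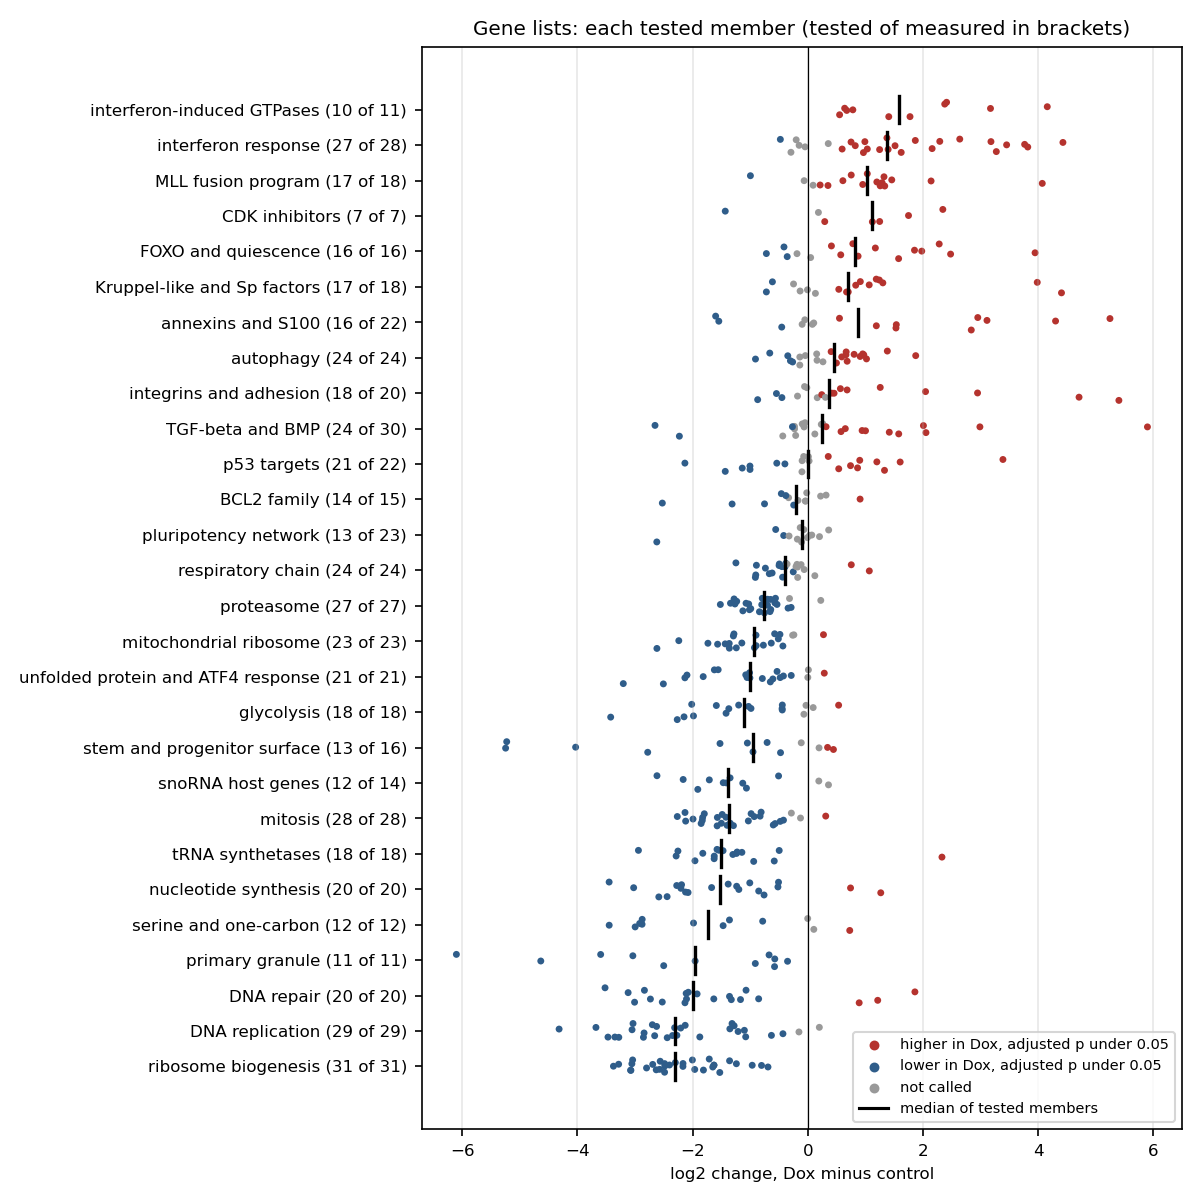
Log2 change (Dox minus control, horizontal axis) of every tested member of 28 gene lists (rows), 1 point per gene, red where called higher in Dox, blue where called lower and grey where not called; the black bar is the median of the tested members, and the brackets give tested of measured genes. All 31 ribosome biogenesis genes lie below 0 and all 10 tested interferon-induced GTPases lie above 0.

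Genes of the primary granule fell as a group, and other lists of myeloid genes were mixed. All 11 of 11 tested primary granule genes fell, with a median change of -1.96. Ctsg, the granule protease cathepsin G, read 4.27, 4.55 and 4.67 on the Dox arrays, against 10.58, 10.58 and 10.64 on the control arrays. Ms4a3, a membrane protein of granulocyte and monocyte progenitors, read 3.44, 3.07 and 2.90 on the Dox arrays, against 7.84, 7.62 and 7.87 on the control arrays. Mpo, myeloperoxidase, read 6.81, 7.11 and 6.92 on the Dox arrays, against 10.54, 10.55 and 10.54 on the control arrays. Each was far lower on all 3 Dox arrays, with changes of -6.10 (SE 0.11, adjusted p = 1.03e-08) for Ctsg, -4.64 (SE 0.14, adjusted p = 6.72e-08) for Ms4a3 and -3.60 (SE 0.10, adjusted p = 3.71e-08) for Mpo. Prtn3, proteinase 3, changed by only -0.35 (SE 0.08, adjusted p = 0.00432), although Elane, neutrophil elastase, encoded beside it, changed by -1.96 (SE 0.10, adjusted p = 6.56e-07). Genes of the secondary granule and of late neutrophils showed little: 2 of 12 tested rose and 1 fell. Cybb, the catalytic subunit of the phagocyte oxidase, rose by 2.13 (SE 0.10, adjusted p = 3.78e-07).

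Surface markers of progenitors were lower in 9 of 13 tested genes and higher in 2. Clec12a, an inhibitory lectin used as an AML surface marker, read 2.85, 2.68 and 2.92 on the Dox arrays, against 8.11, 7.96 and 8.12 on the control arrays. Cd34 read 3.29, 3.86 and 3.17 on the Dox arrays, against 8.74, 8.64 and 8.63 on the control arrays. Cd33, a sialic acid-binding receptor, read 3.30, 3.90 and 3.19 on the Dox arrays, against 7.46, 7.55 and 7.48 on the control arrays. All 3 were wholly lower in Dox, and Clec12a came nearest to the low end of the scale. The changes were -5.25 (SE 0.10, adjusted p = 1.05e-08) for Clec12a, -5.23 (SE 0.17, adjusted p = 7.89e-08) for Cd34 and -4.03 (SE 0.17, adjusted p = 2.96e-07) for Cd33. Kit, the stem cell factor receptor, changed by -2.78 (SE 0.20, adjusted p = 4.66e-06). Further members of the 15 largest falls were Nt5dc2 at -4.44, Tespa1 at -4.40, Adgrg3 at -4.19, Clec4e at -4.10 and Rab44 at -3.97. Clec4e encodes Mincle, a receptor for fungal and mycobacterial glycolipids.

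Transcription factors of the myeloid lineage were divided. Of 16 tested 7 fell and 5 rose. Cebpa, which is required for granulocyte and monocyte progenitors, read 3.90, 4.03 and 3.88 on the Dox arrays, against 5.69, 5.94 and 5.92 on the control arrays. Spi1, which encodes PU.1, read 5.56, 5.52 and 5.44 on the Dox arrays, against 6.53, 6.63 and 6.51 on the control arrays. Id2, an inhibitor of basic helix-loop-helix factors, read 6.10, 6.31 and 6.48 on the Dox arrays, against 4.18, 4.15 and 4.40 on the control arrays. The lineage factors were wholly lower and Id2 wholly higher, with changes of -1.92 (SE 0.10, adjusted p = 7.74e-07) for Cebpa, -1.05 (SE 0.08, adjusted p = 8.79e-06) for Spi1 and 2.05 (SE 0.12, adjusted p = 1.57e-06) for Id2. Among 20 tested stem cell factors 8 fell and 6 rose. Lyl1, a basic helix-loop-helix factor of early hematopoiesis, read 4.77, 4.67 and 4.47 on the Dox arrays, against 8.23, 8.26 and 8.23 on the control arrays, a change of -3.60 (SE 0.10, adjusted p = 3.74e-08). Sox4, which can cooperate in myeloid leukemia, rose by 2.52 (SE 0.10, adjusted p = 2.04e-07), and by 2.18 at its dimmer probe set. Runx1 changed by -0.87.

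The MLL fusion programme did not fall with the rest. Of 17 tested members 14 rose and 1 fell, with a median change of 0.996 over the 18 measured. Hoxa9, a central target of the fusion, read 9.15, 9.13 and 9.16 on the Dox arrays, against 7.71, 7.86 and 7.89 on the control arrays. Meis1, its cofactor, read 9.24, 9.40 and 9.29 on the Dox arrays, against 8.72, 8.74 and 8.63 on the control arrays. Both lay higher on all 3 Dox arrays, with changes of 1.33 (SE 0.08, adjusted p = 2.31e-06) for Hoxa9 and 0.61 (SE 0.09, adjusted p = 0.000304) for Meis1. The largest rise was that of Cpeb2, a cytoplasmic polyadenylation element binding protein, with 8.09, 8.22 and 8.01 on the Dox arrays, against 3.96, 3.98 and 4.15 on the control arrays and a change of 4.07 (SE 0.10, adjusted p = 2.32e-08). Myb, the exception, read 8.91, 8.90 and 8.98 on the Dox arrays, against 9.94, 9.92 and 9.91 on the control arrays, a change of -0.995 (SE 0.08, adjusted p = 7.71e-06), and -0.32 at its dimmer probe set. Among 20 tested cofactors 7 rose and 8 fell. Mllt3, the gene that encodes AF9, rose by 2.28 (SE 0.13, adjusted p = 1.27e-06), but the fusion transcript and the normal transcript were not separated. Aff4, a scaffold of the super elongation complex, rose by 2.39 (SE 0.08, adjusted p = 1.18e-07), while Wdr5, a core subunit of MLL complexes, changed by -2.12 (SE 0.09, adjusted p = 3.11e-07) and Dot1l, the H3K79 methyltransferase, by -0.73 (SE 0.08, adjusted p = 9.62e-05).

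Chromatin genes were divided. Uhrf1, which guides maintenance methylation to replicating DNA, read 4.26, 3.75 and 3.93 on the Dox arrays, against 7.32, 7.31 and 7.45 on the control arrays, a change of -3.38 (SE 0.13, adjusted p = 1.93e-07). Dnmt1, the maintenance methyltransferase, changed by -1.94 (SE 0.08, adjusted p = 2.65e-07). Tet2, a dioxygenase that oxidizes methylcytosine and is often mutated in human AML, went the other way by 1.56 (SE 0.09, adjusted p = 1.31e-06). Of 24 Polycomb and LSD1 genes 9 rose and 8 fell. Ezh2, the methyltransferase of dividing cells, changed by -0.73, whereas its paralog Ezh1 changed by 1.08.

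Cytokine signaling genes changed in both directions. Socs2, a feedback inhibitor of cytokine receptors, read 9.10, 9.17 and 9.18 on the Dox arrays, against 5.43, 5.45 and 5.25 on the control arrays. Jak2, the kinase of many myeloid cytokine receptors, read 9.61, 9.68 and 9.65 on the Dox arrays, against 6.73, 6.68 and 6.69 on the control arrays. Pim1, a kinase induced by STAT5, read 6.81, 6.71 and 7.18 on the Dox arrays, against 9.10, 9.14 and 9.06 on the control arrays. Socs2 and Jak2 were wholly higher and Pim1 wholly lower, with changes of 3.78 (SE 0.09, adjusted p = 2.32e-08) for Socs2, 2.94 (SE 0.08, adjusted p = 3.27e-08) for Jak2 and -2.19 (SE 0.13, adjusted p = 1.4e-06) for Pim1. The dimmer probe set of Pim1 changed by -0.15, and that of Socs2 by 2.55. Of 16 growth factor and cytokine receptors 8 fell and 4 rose, and without Dox replicate 1 the falls numbered 5. Csf3r, the G-CSF receptor, changed by -2.24 (SE 0.10, adjusted p = 4.33e-07), and Il6st, the shared subunit gp130, by 1.86 (SE 0.09, adjusted p = 4.66e-07). Among inflammatory cytokines Tnf read 3.47, 3.55 and 3.83 on the Dox arrays, against 7.16, 7.22 and 6.92 on the control arrays, wholly lower, with a change of -3.48 (SE 0.12, adjusted p = 1.23e-07). Tgfb1 changed by -2.65 (SE 0.09, adjusted p = 1.05e-07), and Il15, which sustains NK cells, by 1.65 (SE 0.19, adjusted p = 0.000101). In all, 1 of 15 tested cytokine genes rose, 4 fell and 10 were not called.

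Interferon-response genes rose. Of 28 measured members 27 were tested, of which 21 rose, 16 by at least 2-fold, and 1 fell. The median change over the measured members was 1.31, and 1 member passed the level filter only through the Dox arrays. Irf7, the factor that amplifies type I interferon production, read 8.13, 8.13 and 7.98 on the Dox arrays, against 3.71, 3.63 and 3.60 on the control arrays. Ifit1, which binds foreign RNA caps, read 6.81, 6.89 and 6.98 on the Dox arrays, against 2.95, 3.02 and 3.40 on the control arrays. Oas2, which makes the second messenger that activates RNase L, read 8.21, 8.32 and 8.35 on the Dox arrays, against 4.83, 4.87 and 4.82 on the control arrays. All groups lay wholly apart, with changes of 4.43 (SE 0.08, adjusted p = 1.05e-08) for Irf7, 3.77 (SE 0.13, adjusted p = 9.27e-08) for Ifit1 and 3.46 (SE 0.08, adjusted p = 2.32e-08) for Oas2. Other large rises were Rtp4 at 3.82, Zbp1, a sensor of Z-form nucleic acid, at 3.28, and Usp18, a negative regulator of the type I interferon receptor, at 3.18. The response was uneven within the family: Ifit2 fell by 1.39-fold (-0.48, adjusted p = 0.00814), and Ifit3 was not called (0.36, adjusted p = 0.227), with an adjusted p of 0.0199 without control replicate 2.

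Interferon-induced GTPases, which attack vacuoles that hold pathogens, rose in all 10 tested of 11 measured genes, but 3 of them passed the level filter only through the Dox arrays. Gbp9 read 6.29, 6.29 and 6.26 on the Dox arrays, against 3.44, 3.01 and 2.87 on the control arrays, a change of 3.18 (SE 0.14, adjusted p = 3.62e-07). Gbp8 had control arrays under the 40th percentile, and its rise was at least 3.58 (adjusted p = 6.61e-07 as measured). Gbp genes are close paralogs, and sharing of signal between their probe sets was not tested. Interferon-stimulated promoters are shown for the core letters of the interferon-stimulated response element (ISRE), GAAANNGAAA on either strand, in capitals. The Ifit1 stretch is chr19:34640639-34640888 on the plus strand, and the Gbp5 stretch is chr3:142496684-142496933 on the plus strand (RefSeq, GRCm38.p6, 250 bases before the gene start).
Ifit1: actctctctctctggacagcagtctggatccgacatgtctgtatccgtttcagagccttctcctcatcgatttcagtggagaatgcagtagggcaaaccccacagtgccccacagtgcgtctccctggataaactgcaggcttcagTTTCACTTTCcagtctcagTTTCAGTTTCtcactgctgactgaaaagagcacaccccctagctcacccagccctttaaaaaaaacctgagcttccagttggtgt
Gbp5: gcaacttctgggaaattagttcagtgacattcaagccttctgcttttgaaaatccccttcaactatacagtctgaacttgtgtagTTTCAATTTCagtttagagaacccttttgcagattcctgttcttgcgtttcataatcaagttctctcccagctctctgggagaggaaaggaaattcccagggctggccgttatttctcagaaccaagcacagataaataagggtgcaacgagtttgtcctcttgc
The Ifit1 stretch holds 2 matches, starting 104 and 85 bases before the gene start, and the Gbp5 stretch holds 1 at 165 bases. Such letters stood in 7 of 15 interferon-response promoters (46.7%) and 5 of 5 GTPase promoters (100%), against 252 of 9367 tested promoters (2.69%). Gbp5 itself changed by 2.38 (SE 0.11, adjusted p = 4e-07). The motif was chosen after the values were seen.

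Antigen presentation did not follow as a whole. Of 11 MHC class I and processing genes 4 rose and 7 fell. Cd1d1, which presents lipids, rose by 1.83 (SE 0.16, adjusted p = 1.64e-05), and H2-K1 by 0.68 (SE 0.08, adjusted p = 0.000123), while Tap2, a peptide transporter, changed by -1.19 (SE 0.09, adjusted p = 6.89e-06). Of 12 MHC class II and costimulation genes 3 rose and 5 fell, with the class II gene H2-Ab1 at -1.60 (SE 0.08, adjusted p = 5.78e-07) and Cd80, a costimulatory ligand, at 1.42 (SE 0.10, adjusted p = 3.83e-06). Among inhibitory ligands and receptors 5 of 16 rose and 5 fell, and 1 of the risers, Cd200, passed the level filter only through the Dox arrays. Cd200, a ligand that restrains myeloid cells, was under the 40th percentile on all control arrays. It read 8.03, 8.06 and 8.06 on the Dox arrays. Its rise was at least 5.70 on the log2 scale (adjusted p = 2.34e-08 as measured). Its receptor gene Cd200r1 rose by 1.87 (SE 0.14, adjusted p = 5.99e-06). Entpd1 (CD39), which breaks down extracellular ATP, read 7.92, 7.91 and 7.83 on the Dox arrays, against 4.34, 4.37 and 4.30 on the control arrays, a change of 3.55 (SE 0.08, adjusted p = 1.81e-08). Cd274, which encodes PD-L1, went down by -0.71 (SE 0.11, adjusted p = 0.0006).

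Death and p53 genes were examined because the series asks how the leukemia cells are lost after induction. Of 14 tested BCL2 family genes 6 fell and 1 rose. Bid, the link from death receptors to mitochondria, read 2.98, 3.39 and 3.38 on the Dox arrays, against 5.74, 5.82 and 5.76 on the control arrays. Bcl2, the founding survival member, read 6.37, 6.43 and 6.19 on the Dox arrays, against 5.30, 5.45 and 5.499 on the control arrays. Bid was wholly lower and Bcl2 wholly higher, with changes of -2.53 (SE 0.12, adjusted p = 5.31e-07) for Bid and 0.91 (SE 0.10, adjusted p = 6.48e-05) for Bcl2. The dimmer probe set of Bcl2 changed by 0.03. Bbc3, which encodes the p53-induced killer PUMA, was not called (-0.02, adjusted p = 0.92). Of 20 caspase and death receptor genes 10 fell and 4 rose. Fas, a death receptor, rose by 1.69 (SE 0.13, adjusted p = 8.7e-06), and Mlkl, the effector of necroptosis, changed by -1.92 (SE 0.08, adjusted p = 2.73e-07). The p53 targets split into 9 higher and 7 lower of 21 tested, with a median change of -0.01 over the 22 measured and 0.012 over those tested. Trp53inp1, a stress-induced nuclear protein, read 7.38, 7.58 and 7.52 on the Dox arrays, against 4.27, 4.09 and 3.95 on the control arrays, a change of 3.39 (SE 0.11, adjusted p = 6.92e-08). Mdm2, the p53 ubiquitin ligase, was not called (-0.07, adjusted p = 0.541).

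The 15 largest rises, picked among called genes with separate groups, ran from 5.43 to 8.75 on the log2 scale as measured. Akr1c18, a hydroxysteroid dehydrogenase that inactivates progesterone, read 11.25, 11.38 and 11.15 on the Dox arrays, against 2.53, 2.48 and 2.503 on the control arrays. That is a change of 8.75 (SE 0.09, adjusted p = 1.31e-09), the largest of the comparison. Its paralog Akr1c14 had control arrays under the 40th percentile and rose by at least 1.98 (adjusted p = 4.32e-06 as measured). Sharing of signal between these paralogs was not tested. Lix1 read 8.97, 9.42 and 9.21 on the Dox arrays, against control arrays all under the 40th percentile. Its rise was at least 6.85 (adjusted p = 7.82e-09 as measured). Avil, an actin-binding protein of the villin family, read 8.72, 8.77 and 8.78 on the Dox arrays, against 2.44, 2.45 and 2.63 on the control arrays. Bmpr2, the type II receptor for bone morphogenetic proteins, read 10.30, 10.27 and 10.26 on the Dox arrays, against 4.46, 4.19 and 4.49 on the control arrays. Both were wholly higher, with changes of 6.25 (SE 0.09, adjusted p = 7.82e-09) for Avil and 5.90 (SE 0.10, adjusted p = 7.82e-09) for Bmpr2. The other 10 of the largest 15 besides Klf4 rose by 5.43 to 6.15 as measured: Pcyt1b, of phosphatidylcholine synthesis, Cd200, Ahsg, the liver glycoprotein fetuin-A, Matn2 and Vcan, both of the extracellular matrix, Tmem35a, Pde7b, Hbb-y, Tspan13, a tetraspanin, and Foxc1, a forkhead factor of mesenchyme. Tmem35a and Hbb-y had all control arrays under the 40th percentile, and their rises were at least 5.57 for Tmem35a and 5.28 for Hbb-y.

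**Figure D5:**
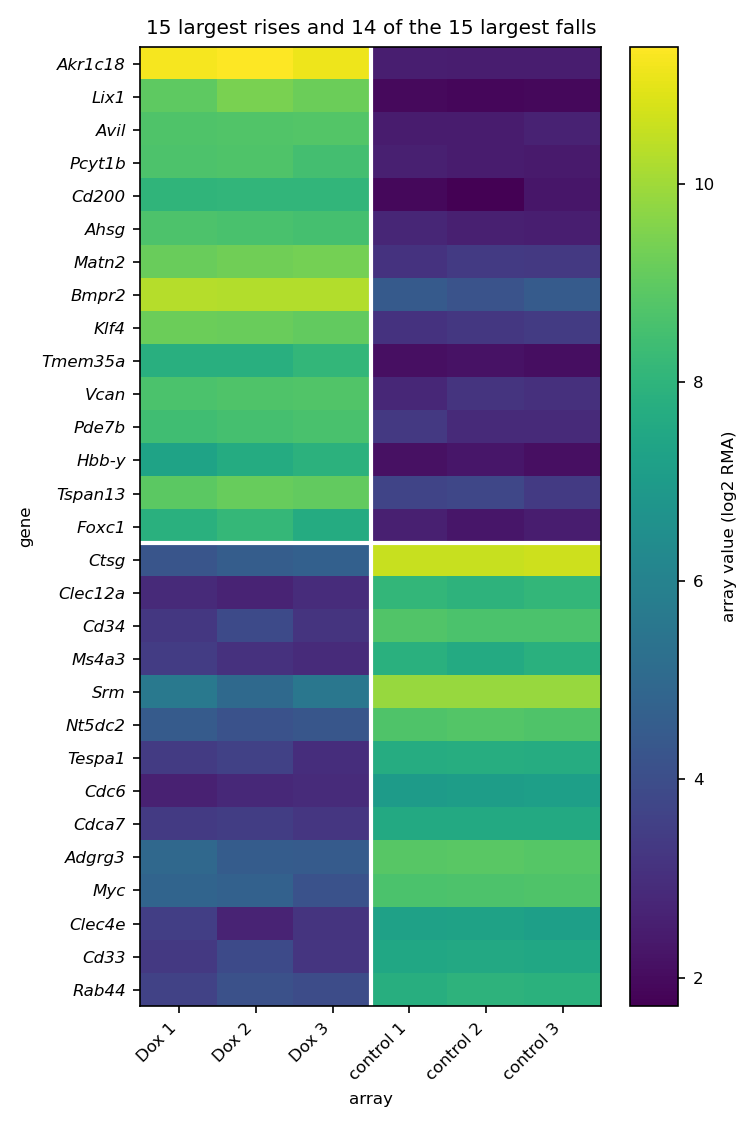
Log2 RMA value (colour scale) on each of the 3 Dox and 3 control arrays (columns) for the 15 largest rises (above the white line, largest first) and 14 of the 15 largest falls (below it, largest first). Only called genes whose 3 Dox arrays lie wholly outside the 3 control arrays were eligible, so that separation is set by the choice of genes. Akr1c18 is at the top of the rises and Ctsg at the top of the falls.

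Cyclic nucleotide phosphodiesterases, which end cAMP and cGMP signals, rose in 8 of 15 tested genes and fell in 4, 8 and 2 of them by at least 2-fold. Of the 17 measured genes, 1 riser passed the level filter only through the Dox arrays, and the median change over the measured genes was 0.22. Pde7b, which hydrolyses cAMP, read 8.40, 8.54 and 8.59 on the Dox arrays, against 3.33, 2.85 and 2.88 on the control arrays. Pde5a, which hydrolyses cGMP, read 6.26, 6.16 and 6.06 on the Dox arrays, against 2.44, 1.83 and 2.21 on the control arrays. Pde2a, which cGMP stimulates, read 3.55, 3.37 and 3.65 on the Dox arrays, against 6.65, 6.62 and 6.68 on the control arrays. The first pair lay wholly higher and Pde2a wholly lower, with changes of 5.49 (SE 0.14, adjusted p = 3.1e-08) for Pde7b and -3.13 (SE 0.09, adjusted p = 5.91e-08) for Pde2a. Pde5a had 2 of its 3 control arrays under the 40th percentile, and with values raised to that percentile its change was 3.78 (adjusted p = 1.62e-07 as measured). In the prostaglandin pathway Ptgs2, the inducible cyclooxygenase, rose by 2.98 (SE 0.09, adjusted p = 6.42e-08). Ptger4, a prostaglandin E2 receptor that raises cAMP, read 8.55, 8.68 and 8.70 on the Dox arrays, against 4.16, 4.29 and 4.38 on the control arrays, a change of 4.36 (SE 0.09, adjusted p = 1.77e-08). Hpgd, the dehydrogenase that inactivates prostaglandins, read 7.25, 7.10 and 6.96 on the Dox arrays, against 10.58, 10.35 and 10.54 on the control arrays, a change of -3.38 (SE 0.11, adjusted p = 6.93e-08).

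Of 18 tested integrin and adhesion genes 10 rose and 3 fell. Vcam1, the ligand of integrin alpha 4 beta 1, read 9.45, 9.44 and 9.46 on the Dox arrays, against 3.91, 4.11 and 4.11 on the control arrays. Itga2, a collagen-binding integrin subunit, read 7.22, 7.31 and 7.23 on the Dox arrays, against 2.46, 2.63 and 2.53 on the control arrays. Neither had overlapping groups, and the changes were 5.41 (SE 0.09, adjusted p = 7.82e-09) for Vcam1 and 4.71 (SE 0.08, adjusted p = 1.01e-08) for Itga2. In a list of annexins and S100 proteins added after the values were seen 9 of 16 tested rose and 3 fell. Anxa1, a phospholipid-binding protein that resolves inflammation, read 8.60, 8.62 and 8.65 on the Dox arrays, against 3.34, 3.39 and 3.39 on the control arrays. Anxa2, which with S100a10 forms a membrane complex, read 10.19, 10.40 and 10.18 on the Dox arrays, against 5.99, 5.97 and 5.90 on the control arrays. Both were wholly higher, with changes of 5.25 (SE 0.08, adjusted p = 7.82e-09) for Anxa1 and 4.31 (SE 0.09, adjusted p = 1.76e-08) for Anxa2, and S100a10 changed by 2.95 (SE 0.10, adjusted p = 7.46e-08).

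Genes of developmental signaling pathways moved in both directions. Of 24 tested TGF-beta and BMP genes 11 rose and 3 fell, out of 30 measured, and 1 of the risers passed the level filter only through the Dox arrays. Besides Bmpr2, Acvr2a, an activin receptor, rose by 2.99 (SE 0.12, adjusted p = 2.41e-07) and Smad4, the shared signal carrier, by 2.01 (SE 0.08, adjusted p = 2.68e-07). Id1, a classical BMP target, went down by -2.23 (SE 0.09, adjusted p = 2.08e-07). Of 21 Wnt pathway genes 11 rose and 3 fell (7 rose at the 60th percentile filter, which tests fewer genes), with Tcf7l2, a partner of beta-catenin, at 2.86 (SE 0.13, adjusted p = 4.28e-07). Axin2, a standard target of the pathway, was not called (-0.06, adjusted p = 0.753), and its dimmer probe set changed by 0.22. Of 17 Notch pathway genes 7 rose (4 at the 60th percentile filter) and 3 fell, and the target Hes1 was not called (-0.01, adjusted p = 0.929).

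Most genes of glycolysis and sterol synthesis were lower. Of 18 tested glycolysis genes 14 fell and 1 rose, with a median of -1.11. Slc16a1, the lactate carrier MCT1, read 4.91, 5.14 and 5.29 on the Dox arrays, against 8.54, 8.56 and 8.50 on the control arrays, a change of -3.42 (SE 0.11, adjusted p = 6.92e-08). Hk2, a hexokinase, changed by -2.27 (SE 0.12, adjusted p = 7.49e-07) and Ldha, lactate dehydrogenase A, by -1.37 (SE 0.10, adjusted p = 4.24e-06). In a list of cholesterol synthesis genes that also holds regulators and exporters, 14 of 19 fell and 2 rose. Sqle, squalene epoxidase, changed by -2.51 (SE 0.10, adjusted p = 2.48e-07), while Abca1, which exports cholesterol, read 6.66, 6.61 and 6.73 on the Dox arrays, against 2.80, 3.13 and 2.65 on the control arrays, a change of 3.80 (SE 0.13, adjusted p = 8.77e-08). Genes of the Nrf2 and oxidative stress response fell in 14 of 17 cases and rose in 1. Autophagy genes were more often higher, with 13 of 24 higher, 5 lower and a median of 0.45. Map1lc3b, which encodes the autophagosome protein LC3B, rose by 1.88 (SE 0.11, adjusted p = 1.52e-06). Lysosomal genes rose in 9 of 23 and fell in 4, with Ctsl, cathepsin L, at 1.82 (SE 0.09, adjusted p = 5.12e-07) and Cd63, a tetraspanin of late endosomes, at -2.49 (SE 0.09, adjusted p = 1.64e-07).

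Markers of the labelled cells and of other cells were set beside these results. All 11 measured primary granule genes, which mark the myeloid progenitor state of the label, lay above the 60th percentile on at least 1 array. The control arrays alone can meet that count, so it does not check the label of the Dox cells. The summed level of the list was 11.51 to 11.57 log2 in Dox and 13.31 in control cells. Of the T and NK cell markers 12 of 15 measured lay under the 60th percentile on all 6 arrays, and the summed level of the list was 6.43 to 6.51 log2 in Dox and 6.41 to 6.50 in control cells. Of the B lymphoid markers 11 of 13 lay under it, with sums of 6.26 to 6.52 in Dox and 6.15 to 6.22 in control. Of the stromal and endothelial markers 12 of 17 lay under it, with sums of 8.96 to 9.03 in Dox and 8.81 to 8.85 in control. Cd3e at 2.66 ± 0.08 in Dox and 2.60 ± 0.08 in control (SD, n = 3 each) and Col1a1 at 2.79 ± 0.09 in Dox and 2.85 ± 0.16 in control were at low levels. Other members lay above the 60th percentile on at least 1 array. They were Gata3, Prf1 and Tbx21 for T and NK cells and Cd79b and Cr2 for B cells. For stromal and endothelial cells they were Col3a1, Egfl7, Pdgfrb, Pecam1 and Tie1. Monocyte and macrophage markers were divided, with 5 of 23 higher and 8 lower. Itgam (CD11b) read 9.19, 9.14 and 9.06 on the Dox arrays, against 6.25, 6.04 and 6.25 on the control arrays, and Ctss, cathepsin S, read 7.16, 7.34 and 7.28 on the Dox arrays, against 4.05, 4.49 and 4.10 on the control arrays. Both were wholly higher, with changes of 2.95 (SE 0.09, adjusted p = 6.92e-08) for Itgam and 3.05 (SE 0.13, adjusted p = 2.66e-07) for Ctss, while Cd68 changed by -2.26 (SE 0.13, adjusted p = 1.23e-06) and Csf1r, the M-CSF receptor, was not called (-0.30, adjusted p = 0.101, or 0.044 without control replicate 2). The summed level of that list was 10.67 to 10.77 in Dox and 10.35 to 10.44 in control cells. Of the megakaryocyte and platelet markers 7 of 13 lay under the 60th percentile on all 6 arrays, with sums of 7.97 to 8.05 in Dox and 6.52 to 6.59 in control. Of the erythroid markers 7 of 11 lay under it, with sums of 8.08 to 8.48 in Dox and 7.86 to 7.95 in control. Of the mast cell and basophil markers 7 of 13 lay under it, with sums of 8.05 to 8.13 in Dox and 7.82 to 7.89 in control. Among tested megakaryocyte and platelet markers 3 of 10 rose and 1 fell. Among tested mast cell and basophil markers 1 of 7 rose and 4 fell, 3 of them by at least 2-fold. Slc18a2, on both lists, was the only rise of at least 2-fold in either list. Both sums include Slc18a2, so their higher values in Dox do not show a rise of the other members. The sums without Slc18a2 were not computed. The part of a changed cell mixture in the results was not tested. Among erythroid markers Hbb-y, the embryonic beta-like globin, rose as above, but Tfrc, the transferrin receptor, went down by -3.70 (SE 0.09, adjusted p = 2.54e-08) and Gata1 was not called (0.15, adjusted p = 0.283). Of 7 tested erythroid markers 2 rose and 2 fell, and 1 passed the level filter only through the Dox arrays. The erythroid sum includes Hbb-y, so its higher value in Dox does not show a rise of the other members. The sum without Hbb-y was not computed. Slc18a2, the vesicular monoamine transporter of platelets and mast cells, read 7.37, 7.49 and 7.37 on the Dox arrays, against 2.42, 2.67 and 2.58 on the control arrays, a change of 4.85 (SE 0.10, adjusted p = 1.18e-08), whereas Pf4, platelet factor 4, was not called (0.26, adjusted p = 0.097).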

How the data were processed

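Log2 values were taken from the deposited value table of 41345 probe sets, for which the authors' processing was RMA, as the submitters' processing notes say; its version and the genome build are not stated in the sources used here. Per the labels' protocols, RNA was extracted with TRIzol and labelled with biotin for 1-colour whole-transcript arrays. Only the 3 AML Dox and 3 AML control arrays were used, and 12 other array columns entered no comparison. The table of probe names gave 1 symbol to 23521 probe sets, several to 1814 and listed 16010 not at all; 23328 of the first matched RefSeq by Entrez ID and no symbol changed. Where a gene had several such probe sets (1082 of 22180 genes), the brightest on average over the 6 arrays was kept.

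Genes above the array's 40th percentile on at least 3 of 6 arrays (14763) entered lmFit and eBayes of limma 3.58.1 under R 4.3.3 (4 residual and 4.08 prior degrees of freedom, prior SD 0.127, median SE 0.106 log2), with Benjamini-Hochberg adjustment over all of them. Where all 3 arrays of a group lay under that percentile, the change was recomputed with values raised to it and given as a lower bound. The adjusted p beside such a bound is that of the values as measured. On simulated data with 200 of 14763 genes changed, 0.88 of the changes of 1 log2 and 0.4 of those of 0.5 log2 were called. A far larger share of genes was called in the real data, and the adjustment depends on that share. These rates therefore need not hold for this comparison. The number of arrays limits the precision.

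The comparison, the 70 lists and the 6 lists added later were chosen with earlier results of these data known, so list counts carry no test. Named genes were the 4 factors, the 15 largest rises and falls with separate groups (no predicted, microRNA or small nucleolar RNA genes), and list members by role or size of change. Of 1350 listed genes 1244 were measured and 1122 tested. Promoter letters were searched on both strands in the 250 bases before the start of 9367 tested genes with a single promoter in the RefSeq table. The E-box, GC box and CACCC letters were listed with the design, and the other motifs were added after the values were seen. Alternatives were a block for the replicate number, leaving out each array, median centring, quantile normalization, no filter, the 60th percentile, the mean of a gene's probe sets, floored values, a trended prior and array weights. Same-numbered arrays did not deviate together (correlations of -0.005, 0.016 and -0.007), so no sign of pairing by number was seen. Whether same-numbered arrays share a source is not stated. The last of the 15 largest falls is not reported here.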

Additional observations from a re-analysis of the deposited data

How the results depend on the processing

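With the replicate number as a block, 7877 genes were called (3722 higher and 4155 lower in Dox, against 3790 and 4257 without the block), and 7687 of the 8047 genes were called in both. As no sign of pairing by number was seen, the block was not used. Leaving out each array in turn gave 7468 to 7673 genes called, and 3133 to 3160 with at least a 2-fold change. Centring each array on the median of all 41345 probe sets moved the split to 3315 higher and 4898 lower. That median lay 0.0833 log2 higher in Dox, whereas the median change of the genes tested was -0.012. The totals and the 2-fold counts stayed within 1.5 times of the reported ones under all 15 alternatives, as did the 496 list genes with a 2-fold change (490 to 510). Of 2925 values of the named genes under the alternatives 2906 kept their direction and their side of the threshold, 11 lost the call, 8 gained it and none reversed. The changed calls were those of Max, Mycn, Mir106b, Csf1r, Ifit3, Lin28a, Oaz1 and Pola1, all with a change near or under 1 log2. With quantile normalization the adjusted p was 0.0489 for Oaz1 and 0.0298 for Csf1r, and after centring it was 0.0249 for Pola1. Of 2280 list counts 114 moved by more than 1.5 times, of which 109 started from fewer than 5 genes. The other 5 were Wnt genes higher (7 in place of 11), Notch genes higher (4 in place of 7) and precursors of the miR-17 group lower (2 in place of 5) at the 60th percentile filter, and growth factor receptors lower (5 in place of 8) without Dox replicate 1 and with no filter. A stricter filter tests fewer genes; for the other changes the cause was not tested. Values near 2.4 log2 carry little signal over the low end of the array. Bounds or values raised to the 40th percentile are given where all arrays of a group lay under that percentile, and for Pde5a. Other changes against values near 2.4, such as those of Akr1c18, Avil, Slc18a2 and Itga2, are given as measured, without that adjustment.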
